A study of Mus musculus with 6 samples.

Results

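The 10 genes of ceramide and sphingolipid synthesis were examined in the RNA-Seq data of 3T3-L1 adipocytes, mouse preadipocytes that turn into fat cells when given a hormone cocktail. The genes were *Sptlc1*, *Sptlc2*, *Kdsr*, *Cers2*, *Cers4*, *Cers5*, *Cers6*, *Degs1*, *Ugcg* and *Sgms1*, chosen by function from the pathway and matched by symbol. All 10 were found among the 24421 gene symbols of the count tables, and all 10 passed the filter on low counts that left 12766 genes for testing.

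The study asked how *Lmo3*, a LIM-domain transcriptional co-regulator, alters mature adipocytes. Differentiated cells were infected on day 7 with 100 pfu per cell of an adenovirus carrying *LacZ*, which encodes a bacterial enzyme and served as control (AdLacZ, n = 3), or *Lmo3* (Ad*Lmo3*, n = 3), and RNA was taken 72 h later. Both groups had been differentiated with the same agents, namely insulin (870 nM), TZD (5 µM), Dex (1 µM) and IBMX (500 µM). According to the methods, Dex and IBMX were left out from day 3 of differentiation on, while insulin and TZD were kept. The labels give the strain as C57BL/6 for all libraries. The methods name C57BL/6J for the study's mice and give no strain for the 3T3-L1 cells. Each library came from an infection of its own, so that the spread between replicates is that between infections of 1 cell line. The reads that the authors counted on genes summed to 28035639 to 38332335 per library, and 3 counts, taken as the smallest detectable number, corresponded to 0.0783 to 0.107 CPM, the read count scaled to library size. The *Lmo3* symbol had 0 counts in every library, and the adenoviral *Lmo3* is codon-optimized according to the methods, so that this gene could not be used to check the labels.

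RNA of adipocyte markers and of preadipocyte and fibroblast markers was present in both groups. The 12 adipocyte markers summed to 12308 to 12749 CPM in AdLacZ and to 18570 to 22717 CPM in Ad*Lmo3*, and 10 of them, including *Adipoq*, *Retn* and *Fabp4*, were higher in Ad*Lmo3* at an adjusted p under 0.05 (edgeR's quasi-likelihood test with Benjamini-Hochberg adjustment), against 2.71% of all tested genes higher by the same rule. The calls of *Retn*, *Agpat2* and *Cidec* held under every alternative, and those of the other 7 were each lost in at least 1 fit that left out 1 library, with adjusted p-values up to 0.108. In bulk RNA, more cells of a type and more RNA per cell cannot be told apart. The preadipocyte and fibroblast markers summed to 15436 to 19844 CPM in AdLacZ and 15216 to 22833 CPM in Ad*Lmo3*, and the adjusted p-values of the 9 tested genes ran from 0.249 to 0.993 in the same test. Macrophage and leukocyte markers summed to between 3.18 and 5.86 CPM, and *Ptprc*, *Adgre1* and *Itgam* had no more than 3 counts in any library. Libraries of the same group stood apart in the preadipocyte and fibroblast list, whose sum was lowest in replicate 3 of both groups. They also stood apart in 8 interferon response genes, which summed to 1036, 1257 and 1405 CPM in AdLacZ replicates 1, 2 and 3. In Ad*Lmo3* replicates 1, 2 and 3 the interferon response genes summed to 549, 1222 and 2890 CPM (adjusted p 0.444 to 0.998, edgeR).

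Sphingolipids are membrane lipids built on a sphingoid base, and ceramide is the intermediate from which sphingomyelin and the glycosphingolipids are made. Synthesis starts in the endoplasmic reticulum, where serine palmitoyltransferase joins serine to palmitoyl-CoA, a reductase and a ceramide synthase turn the product into dihydroceramide, and a desaturase completes ceramide. In adipose tissue the pathway is known from work on obesity and insulin resistance, where ceramides have been studied as lipids that interfere with insulin signalling.

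None of the 10 genes passed an adjusted p of 0.05 in edgeR's quasi-likelihood test (0 of 10), against 4.28% of all tested genes (547 of 12766). Their log2 fold changes, Ad*Lmo3* against AdLacZ, ran from -0.18 for *Cers2* to 0.49 for *Cers4*, with a median of 0.02 and a median size of 0.03, where all tested genes had a median of 0.00 and a median size of 0.13. At an unadjusted p under 0.05 there were 2 of the 10 genes (20%), *Cers2* and *Cers4*, against 20.6% of all tested genes. The same 2 genes were those whose libraries did not overlap between the groups, against 26.5% of all tested genes. DESeq2 called 1 of the 10 genes, *Cers4*, where it called 8.32% of its 13170 tested genes, and limma voom called 0. With library totals as the only scaling, which moved the median of all genes by -0.07, the fold changes of *Sptlc2*, *Kdsr*, *Cers5*, *Cers6*, *Degs1* and *Sgms1* lay below 0, whereas they were 0.01 to 0.03 in the scaling used throughout.

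**Figure D1:**
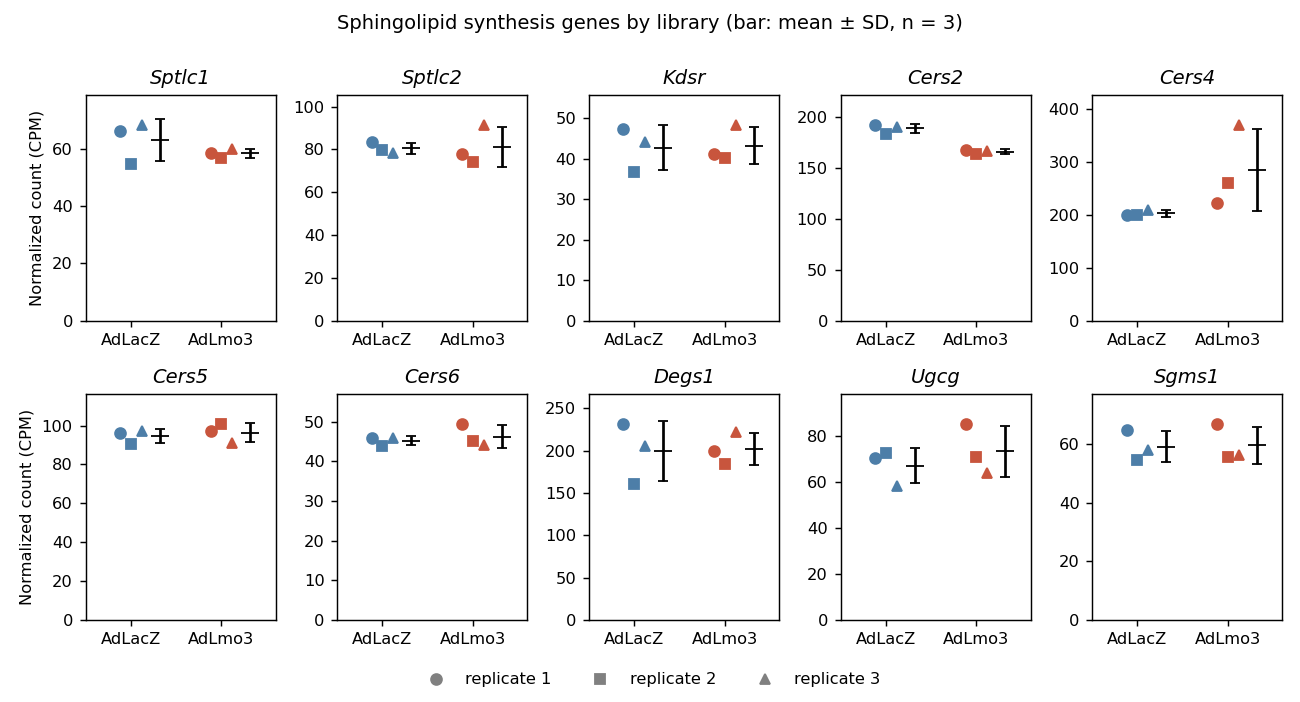
Normalized read count (CPM, linear axis from 0) of each of the 10 genes in the 3 AdLacZ (blue) and 3 Ad*Lmo3* (red) libraries, with the marker shape giving the replicate number and the bar the mean ± SD (n = 3). The groups overlap for 8 genes, whereas the 3 Ad*Lmo3* values lie below all AdLacZ values for *Cers2* and above them for *Cers4*.

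The sequence just before the RefSeq start is shown for the 4 ceramide synthases among the genes chosen above. This family is shown because the groups of *Cers2* and *Cers4* did not overlap, whereas those of *Cers5* and *Cers6* did. By the gene positions given below, which come from GENCODE, the sequences of *Cers2*, *Cers4* and *Cers5* lie inside the gene. The *Cers6* sequence ends just before its gene. Each run holds the 250 bases before the annotated start, written 5′ to 3′ on the gene's own strand, from RefSeq (GRCm38.p6). The windows are chr3:95314940-95315189 on the plus strand for *Cers2* (the first of its 2 entries), chr8:4493155-4493404 on the plus strand for *Cers4*, chr15:99772516-99772765 on the minus strand for *Cers5* and chr2:68861191-68861440 on the plus strand for *Cers6*. Capitals mark matches, on either strand, to the E-box CACGTG, the nuclear receptor half-site AGGTCA, the GC box GGGCGG or the CCAAT box CCAAT, of which none contains another.
Cers2: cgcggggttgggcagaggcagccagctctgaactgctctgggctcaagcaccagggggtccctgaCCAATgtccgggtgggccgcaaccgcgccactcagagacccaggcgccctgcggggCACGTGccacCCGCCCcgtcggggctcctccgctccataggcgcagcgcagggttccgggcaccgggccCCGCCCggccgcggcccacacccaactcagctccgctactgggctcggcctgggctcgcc
Cers4: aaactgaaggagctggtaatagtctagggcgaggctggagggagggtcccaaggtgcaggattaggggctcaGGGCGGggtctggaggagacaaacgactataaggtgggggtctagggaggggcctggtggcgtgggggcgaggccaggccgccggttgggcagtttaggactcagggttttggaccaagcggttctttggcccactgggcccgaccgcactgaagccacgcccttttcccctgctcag
Cers5: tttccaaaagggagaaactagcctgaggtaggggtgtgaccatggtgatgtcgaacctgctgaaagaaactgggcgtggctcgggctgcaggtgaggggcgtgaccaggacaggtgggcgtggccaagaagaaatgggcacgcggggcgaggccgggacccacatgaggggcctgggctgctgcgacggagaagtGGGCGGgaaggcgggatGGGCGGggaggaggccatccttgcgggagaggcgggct
Cers6: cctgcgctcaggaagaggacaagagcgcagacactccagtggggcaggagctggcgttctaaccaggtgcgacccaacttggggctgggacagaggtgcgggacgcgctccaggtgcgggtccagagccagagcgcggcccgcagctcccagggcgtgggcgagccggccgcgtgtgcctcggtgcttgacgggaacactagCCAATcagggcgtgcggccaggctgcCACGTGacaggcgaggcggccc

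The *Cers2* window held 1 E-box, 2 GC boxes and 1 CCAAT box, and the *Cers4* window 1 GC box. The *Cers5* window held 2 GC boxes, and the *Cers6* window 1 E-box and 1 CCAAT box. Among all 32851 windows of the same kind, 6.02% held the E-box, 14% the half-site, 32.7% the GC box and 33.8% the CCAAT box. The half-site, the core of the elements that PPARs and other nuclear receptors bind, had no match in these 4 windows, which says only that its letters are not there; the second *Cers2* entry, at chr3:95318580-95318829, held 1. These matches are a description of letters and were not tied to the fold changes.

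Serine palmitoyltransferase, the first enzyme of the pathway, had fold changes close to 0 in both of its large subunits among the 10 genes, and neither passed the test. *Sptlc1*, which encodes the subunit that pairs with the catalytic one (chr13:53332748-53377397, minus strand, GRCm38), had 66.2, 54.7 and 68.5 CPM in AdLacZ replicates 1, 2 and 3 and 58.5, 56.7 and 60.0 CPM in Ad*Lmo3* replicates 1, 2 and 3. The lowest value was that of AdLacZ replicate 2, and the Ad*Lmo3* values lay within the AdLacZ range. The means were 63.1 ± 7.37 and 58.4 ± 1.66 CPM (SD, n = 3 each), with a log2 fold change of -0.11 (SE 0.0883, 95% interval -0.31 to 0.09; adjusted p = 0.539 by edgeR's quasi-likelihood test).

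*Sptlc2*, which encodes a catalytic subunit (chr12:87305058-87388355, minus strand), had 83.4, 79.9 and 78.3 CPM in AdLacZ and 77.6, 74.0 and 91.6 CPM in Ad*Lmo3*. Ad*Lmo3* replicates 2 and 3 were the lowest and the highest of all 6 libraries, so that the groups overlapped. The log2 fold change was 0.01 (SE 0.0864, 95% interval -0.19 to 0.21; adjusted p = 0.973, edgeR). Per kilobase of merged exons, the level of *Sptlc2* stood below that of *Sptlc1* in every library, with a log2 ratio of -0.83 ± 0.177 in AdLacZ and -0.72 ± 0.124 in Ad*Lmo3* (SD, n = 3). The difference between these ratios was 0.11, and an exact two-sided permutation test gave p = 0.4. *Sptlc3*, the alternative catalytic subunit, was near the limit of detection with 8 to 20 counts in each library.

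*Kdsr*, which encodes the reductase of the second step (chr1:106720459-106759727, minus strand), had 47.4, 36.7 and 44.2 CPM in AdLacZ and 41.2, 40.2 and 48.5 CPM in Ad*Lmo3*. Its lowest value was in AdLacZ replicate 2 and its highest in Ad*Lmo3* replicate 3, and the groups overlapped. The log2 fold change was 0.02 (SE 0.111, 95% interval -0.24 to 0.27; adjusted p = 0.957, edgeR).

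Ceramide synthases attach fatty acids to the sphingoid base and differ in the chain length they prefer. *Cers4*, which favours long acyl chains (chr8:4493026-4531680, plus strand), had 199.7, 199.0 and 210.1 CPM in AdLacZ replicates 1, 2 and 3 and 223, 261 and 371 CPM in Ad*Lmo3* replicates 1, 2 and 3. The AdLacZ libraries lay close together, all 3 Ad*Lmo3* libraries stood above them, and Ad*Lmo3* replicate 3 stood well above the other two. The means were 203 ± 6.36 and 285 ± 77.1 CPM (SD, n = 3), a ratio of 1.41, and the log2 fold change was 0.49 (SE 0.166, 95% interval 0.11 to 0.87).

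By edgeR's quasi-likelihood test the unadjusted p of *Cers4* was 0.0179 and the adjusted p 0.146, which did not pass the threshold. The call turned with the tool and with the libraries used: the adjusted p was 0.0208 with DESeq2 and 0.0443 with edgeR without Ad*Lmo3* replicate 1 (log2 fold change 0.64), and the log2 fold change was 0.26 without Ad*Lmo3* replicate 3 (adjusted p = 0.197, edgeR). Across all alternatives the adjusted p ran from 0.0208 to 0.312.

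The order of the 3 Ad*Lmo3* libraries in *Cers4* was also that of the 8 interferon response genes given above and of *Adipoq*, the adipocyte hormone adiponectin. *Adipoq* had 1872, 1707 and 1836 CPM in AdLacZ and 3031, 3831 and 4384 CPM in Ad*Lmo3* replicates 1, 2 and 3. Of the other adipocyte markers, *Fabp4*, *Cfd*, *Pparg* and *Lipe* had this order, whereas *Plin1*, *Lep*, *Cebpa*, *Slc2a4*, *Retn*, *Agpat2* and *Cidec* did not. The interferon list differed from *Cers4* and *Adipoq* in that its Ad*Lmo3* replicate 1 lay below all AdLacZ libraries, where these genes lay above them. The sum of the preadipocyte and fibroblast markers had the reverse order, with 22833, 20795 and 15216 CPM in Ad*Lmo3* replicates 1, 2 and 3. Within that list, *Ly6a* and *Gata3* had the order of *Cers4*. The part of the interferon response, of the adipocyte markers or of the preadipocyte and fibroblast markers in the *Cers4* values was not tested. Of the merged exons of *Cers4*, 8.97% are overlapped by annotated genes on the opposite strand (*Vmn2r-ps89* and *Gm36956*). Of its stretches of 75 bp, the read length, 7.62% occur in other genes. The strand setting and the annotation of the counting are not stated. It is thus not known whether reads from there were counted for *Cers4*, for the other genes, or left out as assigned to several.

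*Cers2*, which favours very long acyl chains and had the highest level per kilobase of the family (chr3:95314791-95323599, plus strand), had 193, 184 and 190.3 CPM in AdLacZ and 168, 164 and 167 CPM in Ad*Lmo3*. All Ad*Lmo3* libraries lay below all AdLacZ libraries, and the spread within each group was small. The means were 189 ± 4.47 and 166 ± 2.32 CPM (SD, n = 3), a ratio of 0.88, and the log2 fold change was -0.18 (SE 0.0596, 95% interval -0.32 to -0.05). By edgeR's quasi-likelihood test the unadjusted p was 0.0144 and the adjusted p 0.13, so that *Cers2* did not pass the threshold, and the adjusted p ran from 0.0519 to 0.329 across the alternatives. Opposite-strand genes (*6330562C20Rik* and *Setdb1*) overlap 5.96% of its merged exons.

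*Cers5* and *Cers6*, both of which favour palmitoyl chains, had the smallest standard errors of the family after *Cers2*, and neither passed the test. *Cers5* (chr15:99734881-99772885, minus strand) had 96.3, 90.6 and 97.1 CPM in AdLacZ and 97.3, 101 and 90.9 CPM in Ad*Lmo3*, with a log2 fold change of 0.03 (95% interval -0.12 to 0.18; adjusted p = 0.861, edgeR). *Cers6* (chr2:68861441-69114282, plus strand) had 45.8, 43.9 and 46.0 CPM in AdLacZ and 49.5, 45.1 and 44.1 CPM in Ad*Lmo3*, with a log2 fold change of 0.03 (95% interval -0.12 to 0.19; adjusted p = 0.838, edgeR). The groups overlapped for both genes, and the intervals reached from a fold of 0.917 to 1.13 for *Cers5* and of 0.92 to 1.14 for *Cers6*.

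The make-up of the family within a library does not depend on scaling between libraries. Of the summed ceramide synthase level per kilobase of merged exons, *Cers4* took 16.1%, 16.7% and 16.9% in AdLacZ replicates 1, 2 and 3 and 18.7%, 21.4% and 28.4% in Ad*Lmo3* replicates 1, 2 and 3. *Cers2* took 51.8%, 51.7% and 51% in AdLacZ and 47.1%, 44.7% and 42.6% in Ad*Lmo3*. The *Cers4* share was thus higher and the *Cers2* share lower in each Ad*Lmo3* library than in each AdLacZ library.

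The *Cers4* share averaged 16.6% ± 0.402 in AdLacZ and 22.8% ± 5.02 in Ad*Lmo3* (SD, n = 3), a difference of 6.27 percentage points, and an exact two-sided permutation test gave p = 0.1, the smallest value that 3 against 3 libraries allow. The difference was 3.47 percentage points without Ad*Lmo3* replicate 3 and 8.33 without Ad*Lmo3* replicate 1. The *Cers2* share averaged 51.5% ± 0.457 and 44.8% ± 2.22, a difference of -6.69 percentage points with the same exact permutation p of 0.1. Shares of 1 sum move against each other, so that these are not independent results. *Cers5* held 26.8% ± 0.308 and 27% ± 2.56 (exact permutation p = 1), and *Cers6* 5.11% ± 0.00725 and 5.17% ± 0.546 (exact permutation p = 0.9). By read counts alone, without division by length, *Cers4* rather than *Cers2* was the largest member in both groups, with 38.1% against 35.5% in AdLacZ and 47.4% against 28.2% in Ad*Lmo3*. Of the other family members, *Cers1* had 0 counts in every library, and *Cers3*, named after its values were seen, had 5, 7 and 7 counts in AdLacZ and 21, 12 and 17 counts in Ad*Lmo3* (adjusted p = 0.0823, edgeR). At these low counts the *Cers3* groups did not overlap.

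**Figure D2:**
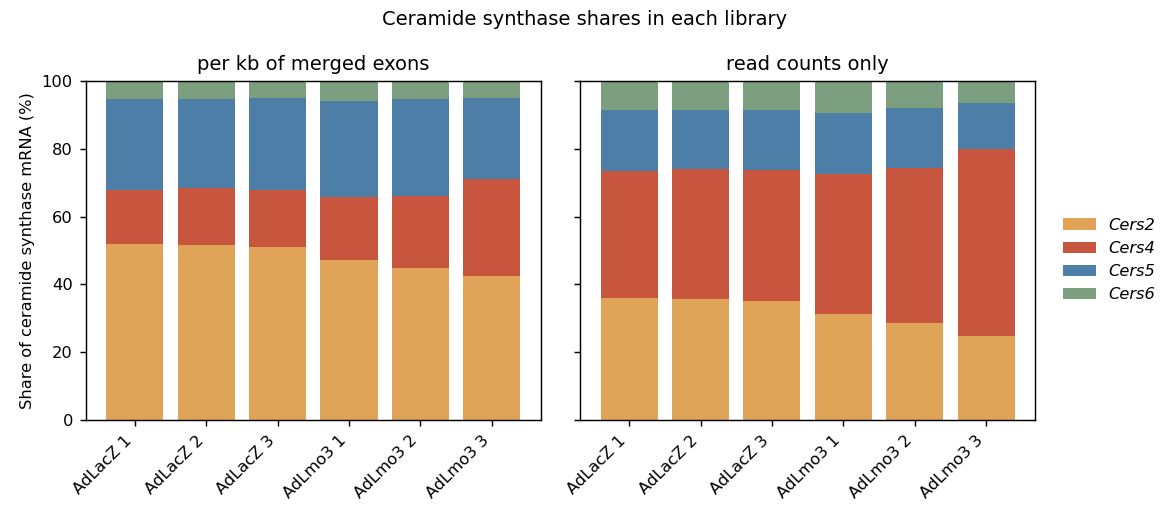
Share of each ceramide synthase gene (%, linear axis from 0 to 100) in the summed level of the family in each of the 6 libraries, per kilobase of merged exons on the left and by read counts alone on the right. The *Cers4* segment is larger in the 3 Ad*Lmo3* bars (18.7% to 28.4% on the left) than in the 3 AdLacZ bars (16.1% to 16.9%), and the *Cers2* segment is smaller.

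*Degs1*, which encodes the desaturase that turns dihydroceramide into ceramide (chr1:182275772-182282804, minus strand), had 232, 161 and 206 CPM in AdLacZ and 199.6, 184 and 222 CPM in Ad*Lmo3*. Its AdLacZ libraries held both the highest and the lowest value, so that the Ad*Lmo3* libraries lay within their range. The log2 fold change was 0.02 (SE 0.133, 95% interval -0.29 to 0.32; adjusted p = 0.966, edgeR), the widest standard error of the 10 genes after that of *Cers4*.

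Ceramide is used by *Ugcg*, which makes glucosylceramide, and by *Sgms1*, which makes sphingomyelin in the Golgi. *Ugcg* (chr4:59189257-59222833, plus strand) had 70.5, 72.4 and 58.3 CPM in AdLacZ and 85.3, 70.7 and 63.8 CPM in Ad*Lmo3*, with a log2 fold change of 0.13 (SE 0.122, 95% interval -0.15 to 0.41; adjusted p = 0.616, edgeR). Its highest value was in Ad*Lmo3* replicate 1 and its lowest in AdLacZ replicate 3, and the groups overlapped. *Sgms1* (chr19:32122727-32389714, minus strand) had 64.9, 54.5 and 58.0 CPM in AdLacZ and 67.1, 55.6 and 56.2 CPM in Ad*Lmo3*, with a log2 fold change of 0.01 (SE 0.0959, 95% interval -0.21 to 0.23; adjusted p = 0.964, edgeR). In both groups replicate 1 was the highest for *Sgms1*. The log2 ratio of *Ugcg* to *Sgms1* per kilobase of merged exons was 1.20 ± 0.208 in AdLacZ and 1.31 ± 0.0943 in Ad*Lmo3* (SD, n = 3). The difference of 0.11 gave p = 0.6 in an exact two-sided permutation test. The size of the ratio depends on the length used, as its means were 0.19 in AdLacZ and 0.30 in Ad*Lmo3* by the longest transcript. The difference was again 0.11.

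**Figure D3:**
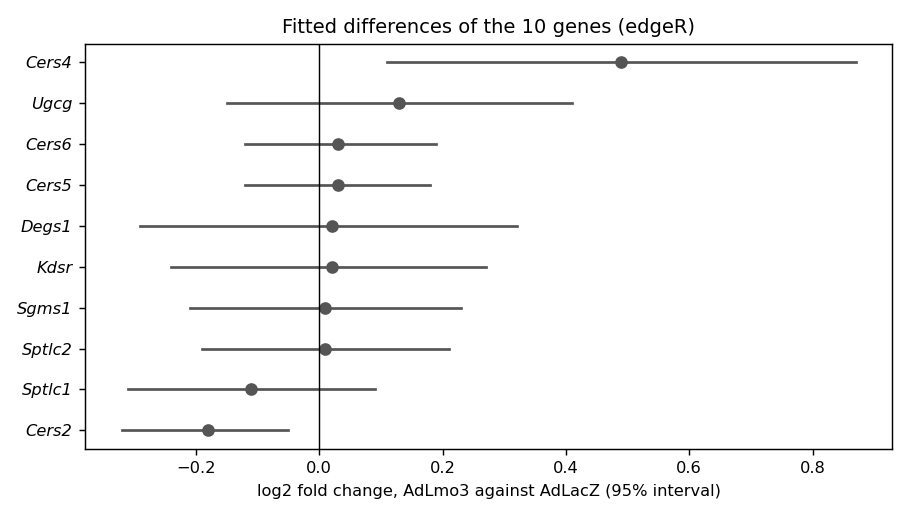
Fitted log2 fold change of each of the 10 genes, Ad*Lmo3* against AdLacZ, as a point with its 95% interval as a line (edgeR, 3 libraries per group); the vertical line marks 0. The intervals of *Cers2* (-0.32 to -0.05) and *Cers4* (0.11 to 0.87) leave out 0 and the other 8 include it, and no gene passed the threshold after adjustment.

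Levels were set against each other as normalized reads per kilobase of merged exons (RPKM). In AdLacZ the order was *Degs1* (77.0 ± 13.8 RPKM), *Cers2* (51.4 ± 1.22), *Cers5* (26.7 ± 1.0), *Sptlc1* (17.8 ± 2.07), *Cers4* (16.5 ± 0.518), *Ugcg* (12.9 ± 1.47), *Sptlc2* (9.93 ± 0.322), *Sgms1* (5.61 ± 0.503), *Kdsr* (5.25 ± 0.671) and *Cers6* (5.10 ± 0.128; SD, n = 3). The neighbours *Sptlc1* and *Cers4*, *Sgms1* and *Kdsr*, and *Kdsr* and *Cers6* differed by less than the larger of their SDs. In Ad*Lmo3* the level of *Cers4* was 23.2 ± 6.28 RPKM and that of *Sptlc1* 16.4 ± 0.466. The order depends on the length used, since *Sgms1* stood at 14.6 ± 1.31 RPKM in AdLacZ, above *Sptlc2* at 12.0 ± 0.39, when the longest transcript took the place of the merged exons.

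The rest of the sphingolipid pathway was read from 10 lists of 58 genes, of which 46 were tested and 12 fell under the count filter. Of the 46 genes, 3 passed the threshold in edgeR's quasi-likelihood test, 1 higher and 2 lower in Ad*Lmo3*, against 2.71% higher and 1.57% lower among all tested genes. At an unadjusted p under 0.05 there were 17 (37%), against 20.6% of all tested genes, and the groups did not overlap for 16 (34.8%), against 26.5%. The lists were chosen with earlier results of these data known, so that these shares are a description and not a test. The fold changes were positive for 25 and negative for 21, with a median of 0.03 and a median size of 0.20.

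*Fads3*, a desaturase that puts a further double bond into sphingoid bases, fell. It had 586, 470 and 594 CPM in AdLacZ and 344, 338 and 333 CPM in Ad*Lmo3*, so that every Ad*Lmo3* library lay well below every AdLacZ library. The means were 550.1 ± 69.4 and 338 ± 5.59 CPM (SD, n = 3), and the log2 fold change was -0.70 (SE 0.0977; adjusted p = 0.0102, edgeR). The call was lost without AdLacZ replicate 3 (adjusted p = 0.0601, edgeR) and without Ad*Lmo3* replicate 2 (adjusted p = 0.0553, edgeR).

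*Sphk2*, one of the kinases that make sphingosine 1-phosphate, also fell. It had 44.2, 53.8 and 44.8 CPM in AdLacZ and 34.9, 37.6 and 33.7 CPM in Ad*Lmo3*, without overlap of the groups. The log2 fold change was -0.43 (SE 0.0914; adjusted p = 0.0417, edgeR), and the call was lost whichever library was left out, with adjusted p-values up to 0.11. Opposite-strand genes, *Dbp* and *Rpl18*, overlap 21.9% of its merged exons.

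*Adipor2*, an adiponectin receptor to which ceramidase activity has been ascribed, rose. It had 579.9, 613 and 644 CPM in AdLacZ and 738, 831 and 915 CPM in Ad*Lmo3*, without overlap. The log2 fold change was 0.43 (SE 0.0938; adjusted p = 0.0431, edgeR), and the call was lost with library totals only (adjusted p = 0.0525) and without any 1 library other than Ad*Lmo3* replicate 1, with adjusted p-values up to 0.146. The same 3 genes were called with limma voom and in edgeR with the replicate number as a block, and DESeq2 called them with *Sgms2*, *Sgpl1* and *Glb1*, which were outside the threshold in edgeR with TMM scaling and all libraries.

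**Figure D4:**
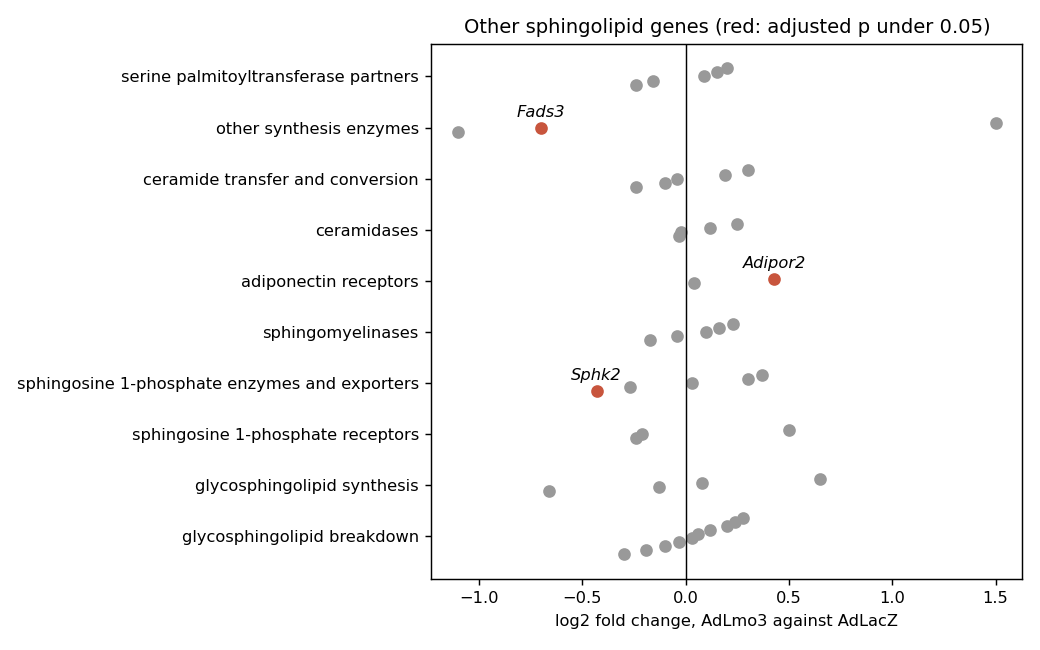
Log2 fold change, Ad*Lmo3* against AdLacZ, of the 46 tested genes of the 10 other sphingolipid lists, 1 point a gene and 1 row a list (edgeR, 3 libraries per group). The 3 red points are the genes with an adjusted p under 0.05, *Fads3* (-0.70), *Sphk2* (-0.43) and *Adipor2* (0.43), and the grey points lie on both sides of 0.

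No other gene of these lists passed the threshold in edgeR with all libraries and TMM scaling. With library totals only, *Ormdl2* (adjusted p = 0.0475), *Cptp* (adjusted p = 0.0474) and *Sgpl1* also passed in edgeR, and without Ad*Lmo3* replicate 1 *Gm2a* did (adjusted p = 0.0297). Around serine palmitoyltransferase, *Ormdl2*, one of the ORMDL proteins that restrain the enzyme, had a log2 fold change of -0.24 (adjusted p = 0.119), with 66.7% of its merged exons overlapped by *Dnajc14* on the opposite strand, and *Sptlc3* one of 0.20 (adjusted p = 0.801). Among the genes that move or convert ceramide, *Sgms2*, the plasma membrane sphingomyelin synthase, had 18.5, 21.2 and 18.9 CPM in AdLacZ and 23.8, 24.1 and 24.3 CPM in Ad*Lmo3* (log2 fold change 0.30, adjusted p = 0.0764), and *Cptp*, a ceramide 1-phosphate carrier, had a fold change of -0.24 (adjusted p = 0.106). For both genes the libraries of the groups did not overlap.

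Of the enzymes that break sphingolipids down, the ceramidases *Asah2* and *Asah1* had log2 fold changes of 0.25 and 0.12 (adjusted p = 0.217 and 0.536 by edgeR), and the sphingomyelinases *Smpd3* and *Smpd2* of 0.23 and -0.17 (adjusted p = 0.824 and 0.316). The sphingosine 1-phosphate receptors *S1pr3* and *S1pr1* had log2 fold changes of 0.50 and -0.24 (adjusted p = 0.38 and 0.64 by edgeR). In the glycosphingolipid lists the largest differences were those of *A4galt* (-0.66, 3 to 22 counts in each library, adjusted p = 0.64) and *B4galnt1* (0.65, adjusted p = 0.197) for synthesis, and of *Gla* (-0.30, adjusted p = 0.266) and *Gm2a* (0.28, adjusted p = 0.209) for breakdown (edgeR).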

How the data were processed

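RNA was measured by RNA-Seq in 6 libraries of 3T3-L1 adipocytes, 3 AdLacZ and 3 Ad*Lmo3*. The authors sequenced single reads of 75 bp, mapped them to mm10 with STAR 2.5.0b (submitters' processing notes, which also name DESeq2 1.6.3) and deposited raw read counts per gene symbol for each library. The counting program, its strand setting and the annotation are not given in the sources used here. Reads assigned to no gene (7.15% to 8.94% per library) or to several (0.476% to 0.543%) stand in lines of their own and were left out.

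Groups and replicate numbers came from the sample labels. Differences between the viruses were fitted with edgeR 4.0.16 in R 4.3.3, after filterByExpr and TMM scaling, by the quasi-likelihood test with virus as the only term. P-values were adjusted by Benjamini-Hochberg over 12766 genes, and the threshold was 0.05. CPM values are TMM-normalized, and the SD is that between libraries. Replicates of a group differed by more than sampling noise (chi-square per degree of freedom 22.9 to 61.6), and each was used as 1 sample. Intervals are 95% intervals of the fitted difference; floors of 3 counts cover counting error only. Shares and ratios were taken within a library per kilobase of merged exons and compared by exact permutation tests. Positions and overlaps came from GENCODE M21 on GRCm38. Windows of 250 bases before the RefSeq start came from RefSeq (GRCm38.p6), which held all 10 genes, 2 of them with more than 1 entry. The fits were tested on simulated counts. Figures were drawn with matplotlib 3.10.9 in Python 3.11.15.

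All 10 genes are named, and of each other list the genes with an adjusted p under 0.05 or otherwise the 2 tested genes with the largest fold change; the members and the lists were chosen with earlier results of these data known. Alternatives were DESeq2 1.42.0, limma voom (3.58.1), other scalings, other count filters, the replicate block, other gene lengths (the principal transcript added after seeing the data) and leaving out each library.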

Additional observations from a re-analysis of the deposited data

How the results depend on the processing

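The number of the 10 genes called was 0 in edgeR and under each alternative except DESeq2 (1, *Cers4*) and the fit without Ad*Lmo3* replicate 1 (1, *Cers4*), so that leaving out 1 library gave 0 to 1. The other sphingolipid genes called numbered 3 in edgeR, 6 with DESeq2, 5 with library totals only and 0 to 3 without 1 library. Among all genes, DESeq2 called 1096 and the fits without 1 library 77 to 501. With library totals only, the log2 fold changes were -0.04 for *Cers5*, -0.04 for *Cers6*, -0.06 for *Degs1*, -0.06 for *Kdsr*, -0.06 for *Sgms1* and -0.07 for *Sptlc2*. Without 1 library, the fold changes crossed 0 for *Cers5* (-0.01 to 0.07), *Cers6* (-0.02 to 0.07), *Degs1* (-0.12 to 0.14), *Kdsr* (-0.08 to 0.10), *Sgms1* (-0.08 to 0.08) and *Sptlc2* (-0.09 to 0.07), and, outside the 10 genes, for *A4galt* (-1.16 to 0.11), *S1pr1* (-0.42 to 0.01), *Smpd3* (-0.20 to 0.62), *Sptlc3* (-0.10 to 0.35), *Irf7* (-0.01 to 1.19), *Ly6a* (-0.01 to 1.19) and *Oas1a* (-0.06 to 1.23). Shares by read counts alone changed by -1.36 percentage points for *Cers5* and -0.629 for *Cers6*, and without 1 library by -0.585 to 1.74 and -0.226 to 0.317. The causes of these changes were not tested. The log2 fold change of *Cers4* was 0.26 to 0.64 and that of *Cers2* -0.20 to -0.17 without 1 library, and those of *Sptlc1*, *Ugcg* and *S1pr3* were -0.20 to -0.05, 0.01 to 0.22 and 0.23 to 0.82. Of the alternative values of the 10 genes, 120 kept their direction and side of the threshold, 18 changed sign and 2 passed the threshold.

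Replicate numbers 1 to 3 occur in both groups. Across genes, a library's distance from its group mean correlated with that of its namesake by 0.0345, 0.176 and 0.176. For libraries of different numbers the correlations ran from -0.265 to 0.149. The numbers were not taken to pair the samples. With the replicate block 498 of all genes, 0 of the 10 genes and the same 3 other sphingolipid genes were called. With 3 libraries per group, the 95% intervals of the 8 genes other than *Cers2* and *Cers4* were narrowest for *Cers5* (-0.12 to 0.18). These intervals reached -0.31 for *Sptlc1* and 0.41 for *Ugcg*. For each of the 8 genes, no difference and any difference inside its own interval were both compatible with the data.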
